A study of Mus musculus with 20 samples.

Results

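The regions described here were distal regions of the embryonic mouse face that carried H3K27ac in nasal tissue only. H3K27ac is acetylation of lysine 27 of histone H3, a mark of active promoters and enhancers, and its peaks were deposited for 10 ChIP-seq libraries of wild-type (WT) embryos. The nasal libraries were the e11.5 medial nasal plate, the e11.5 lateral nasal plate and the e13.5 nose. The jaw libraries were the mandibular and the maxillary process, each at e11.5 and at e13.5. At e15.5 there was a library each of the mandibular process, of the maxillary process and of the nose, 3 in all. All were dissected tissues of mixed cells, with 1 library per tissue and stage and hence no replicates, and whether embryos were pooled is not given in the sources used here. Overlapping peaks of the 10 lists were merged into 42346 regions, of which 27439 lay more than 1 kb from every annotated transcript start and are called distal. The nasal-only regions were selected on the peak calls themselves. They had a peak in each of the 3 nasal libraries and none in any of the 4 jaw libraries. Peaks of the e15.5 libraries entered the merging but not this rule. They numbered 1742 of the 27439 distal regions, a share of 6.35%.

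The face forms from prominences filled mainly by cranial neural crest cells. The medial and lateral nasal parts grow around the nasal pit and give rise to the nose and the middle of the upper lip, while the maxillary and mandibular processes of the first pharyngeal arch form the sides of the upper jaw and the lower jaw. Transcription factors of the ALX, PAX and AP-2 families act in the frontonasal mesenchyme, whereas HAND and DLX factors pattern the lower jaw. Enhancers, often far from the gene they act on, allow one gene to be used differently in each prominence.

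Several facts of the libraries bear on every count below. The nasal lists were longer, with 20494, 21692 and 25947 peaks, against 6573 to 10755 in the 4 jaw lists. The number of reads behind each list is unknown, so a missing jaw peak may be a peak that was not called. In mixed tissue, fewer cells that carry a mark and less of the mark per cell cannot be told apart. At e15.5 the labels and the deposited peak names differed in all 3 libraries. The library labelled mandibular process had peaks named nose, that labelled maxillary process had peaks named md, and that labelled nose had peaks named mx. Promoter peaks were checked for marker genes of each tissue. Over the 7817 genes with a distal region, a promoter peak was found for 54.1%, 55.1% and 66.5% in the medial plate, lateral plate and e13.5 nose libraries. In the jaw libraries this share was 27.4% to 51.2%. A peak at a promoter was found for 6 of 6 frontonasal markers in each nasal library of e11.5 and e13.5, against 1, 3, 3 and 5 of 6 in the jaw libraries of e11.5 mandibular, e11.5 maxillary, e13.5 mandibular and e13.5 maxillary process. The tally of 11 jaw markers separated the tissues less, with 4, 3 and 5 in the nasal libraries, against 6, 2, 7 and 4 in the jaw libraries in the same order. At e15.5 the libraries labelled mandibular process (named nose), maxillary process (named md) and nose (named mx) had 6, 5 and 3 of the frontonasal and 1, 6 and 1 of the jaw markers. Pax7, a frontonasal marker, had a promoter peak at e15.5 in the library labelled mandibular process alone. Hand2, a lower jaw factor, had one at e15.5 in the library labelled maxillary process alone, and before that in both mandibular libraries. These 2 genes, chosen after their values were seen, went with the peak names and against the labels. Each e15.5 library is therefore called below by its label with its peak name beside it.

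The sequences of 5 nasal-only regions are printed first, as examples. Each is 240 bases from the middle of the overlap of the 3 nasal peaks, on the plus strand of GRCm38 (mm10) as given by RefSeq. The Tcf7l1 region had the highest value for its lowest percentile among the nasal libraries, and the Alx1 region was the widest one with a peak in all 3 e15.5 libraries. Alx4 and Tfap2b are frontonasal genes with several or very wide nasal-only regions, and Tenm4, an adhesion protein, had the most regions after Smyd3 with whole lists. The printed Tenm4 region had a jaw peak 658 bp away. Capitals mark matches on either strand to 5 consensus letters: TAATTA (homeodomain), CAGATG (Twist-type E-box), GCCNNNGGC (AP-2), ACAATG (SOX) and TGTTTAC (forkhead). A stretch without capitals holds none of these letters, which says nothing of the factors.
Tcf7l1 intron, chr6:72769482-72769721: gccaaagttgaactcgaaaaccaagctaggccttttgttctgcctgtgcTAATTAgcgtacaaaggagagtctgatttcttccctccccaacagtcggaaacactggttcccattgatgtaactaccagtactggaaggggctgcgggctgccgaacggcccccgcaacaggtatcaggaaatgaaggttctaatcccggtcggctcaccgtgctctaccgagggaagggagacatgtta
Alx1 intergenic, chr10:102880264-102880503: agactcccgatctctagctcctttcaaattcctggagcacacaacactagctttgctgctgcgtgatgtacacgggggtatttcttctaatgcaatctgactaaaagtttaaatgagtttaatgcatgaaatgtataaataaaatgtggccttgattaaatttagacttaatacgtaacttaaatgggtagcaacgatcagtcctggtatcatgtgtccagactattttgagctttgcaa
Alx4 gene body, chr2:93662565-93662804: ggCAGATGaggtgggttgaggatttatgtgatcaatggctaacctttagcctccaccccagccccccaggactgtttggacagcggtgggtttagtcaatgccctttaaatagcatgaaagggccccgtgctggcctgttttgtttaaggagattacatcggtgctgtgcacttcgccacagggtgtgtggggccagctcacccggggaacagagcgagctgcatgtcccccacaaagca
Tfap2b gene body, chr1:19234416-19234655: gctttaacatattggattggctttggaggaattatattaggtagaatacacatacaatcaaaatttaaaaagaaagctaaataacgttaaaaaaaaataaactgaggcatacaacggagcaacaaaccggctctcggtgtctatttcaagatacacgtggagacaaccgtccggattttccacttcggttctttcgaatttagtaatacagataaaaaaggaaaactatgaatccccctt
Tenm4 intron, chr7:96745723-96745962: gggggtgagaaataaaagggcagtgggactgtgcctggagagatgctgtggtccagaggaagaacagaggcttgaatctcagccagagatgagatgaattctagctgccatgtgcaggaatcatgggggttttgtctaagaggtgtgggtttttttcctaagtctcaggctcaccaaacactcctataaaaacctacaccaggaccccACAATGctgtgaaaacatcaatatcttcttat

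Nasal-only regions were the largest class among the distal regions shared by the nasal libraries. Of the 4087 distal regions with a peak in all 3 nasal libraries, 1742 (42.6%) had none in the jaw. A peak in exactly 1 jaw library was found for 973, in 2 for 595, in 3 for 378 and in all 4 for 399. Among the 973, the single jaw library was the e11.5 mandibular process for 450, the e11.5 maxillary process for 218, the e13.5 maxillary process for 217 and the e13.5 mandibular process for 88. The opposite pattern, a peak in all 4 jaw libraries and none in the nasal libraries, was found in 0 distal regions (0% of 27439). Among distal regions with no nasal peak, 1474 had a peak in 1 jaw library and 18 in 2. Among those with no jaw peak, 12026 had a peak in 1 nasal library, 3058 in 2 and 1742 in 3.

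**Figure D1:**
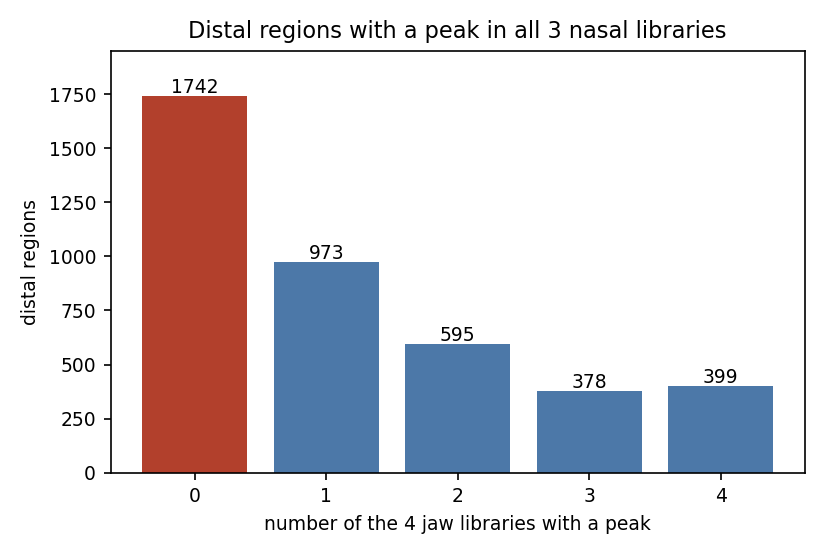
Distal regions with a peak in all 3 nasal libraries (vertical axis, number of regions) by how many of the 4 jaw libraries also had a peak (horizontal axis). The nasal-only regions are the 1742 at 0, and the 2345 others fall from 973 with 1 jaw library to 378 with 3.

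The count depended strongly on how long the peak lists were. When every list was reduced to its 6571 strongest peaks by q-value, the length of the shortest list, 15 regions met the nasal-only rule. Against these, 532 were shared with the jaw and 2 were found in all 4 jaw libraries alone. The jaw lists were cut too, so a region could meet the rule by losing a jaw peak. When only the nasal lists were reduced, to the 10753 peaks of the longest jaw list, 132 nasal-only regions were left, and all of them lay within the 1742. This reduction was chosen after the data were seen. In the nasal lists, the 1742 regions were rarely among the strongest peaks: 275 (15.8%) held one of the top 6571 peaks of the medial nasal plate, 156 (8.96%) of the lateral nasal plate and 43 (2.47%) of the e13.5 nose. For the 2345 regions shared with the jaw these shares were 51.2%, 49.6% and 32.9%. The top peaks included promoter peaks and had a −log10 q of at least 5.07, 5.32 and 9.37. The upper quartiles of all distal regions of these libraries were lower, at 3.75, 3.50 and 4.04. The median −log10 q of nasal-only regions was 2.70, 2.55 and 2.96, against 2.15, 2.10 and 2.39 for all distal regions. The part of the difference in list length in the nasal-only pattern was not tested beyond these counts. Requiring 2 nasal libraries in place of 3, which can only loosen the rule, gave 2803 regions without the medial nasal plate. It gave 2919 without the lateral nasal plate and 2624 without the e13.5 nose.

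**Figure D2:**
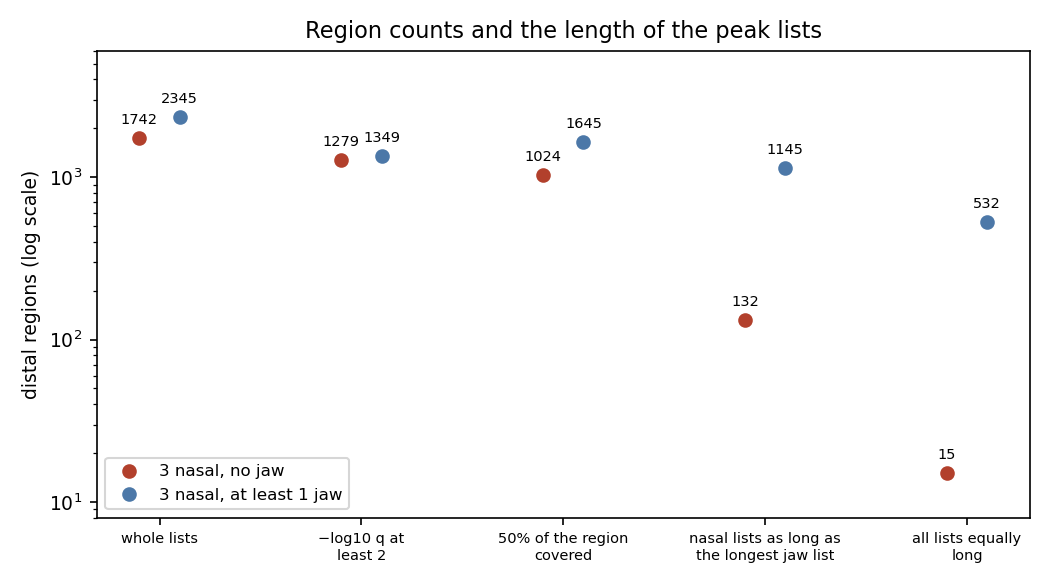
Number of distal regions (vertical axis, log scale) with a peak in all 3 nasal libraries and none in the jaw (left point of each pair) or at least 1 in the jaw (right point), under 5 treatments of the lists. With whole lists the 2 counts were 1742 and 2345, and with all lists equally long they were 15 and 532.

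The regions that stayed when the nasal lists were cut to the longest jaw list included 1 next to Tcf7l1, a repressor of Wnt target genes, 1 in Prdm16, a transcriptional regulator needed for the palate, and 1 in Tead1, a factor of the Hippo pathway. They also included regions nearest to Sfrp2 and Axin2, inhibitors of Wnt signalling, to Prrx2, a homeobox factor of facial mesenchyme, to Etv5, a target of FGF signalling, and to Col1a2, a chain of type I collagen. The intergenic region 136961 bp from Alx1 stayed as well. No region within 100 kb of a gene of the frontonasal or the Hedgehog list stayed, while 1 near Hhat, a Hedgehog palmitoyltransferase outside that list, did. The 15 regions of equally long lists lay nearest to Fam124b, Gorab, Phc2, Megf6, Tcf7l1, Spsb2, Dctpp1, Irf2bp2, Lrriq1, Cuedc1, Rock2, Nfkbia, Rad51b, Adamts20 and Spry4. The start lay 150792 bp away for Fam124b, 346059 bp for Rad51b and 376612 bp for Adamts20. Only 6 of the 15 regions, at Gorab, Tcf7l1, Cuedc1, Nfkbia, Rad51b and Adamts20, overlapped 1 of the 1742. With whole lists, the others had a jaw peak in the merged region or lay within 1 kb of a start.

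The nasal-only regions were moderate peaks in all 3 nasal libraries. Strength is given as the percentile of a region's fold enrichment among all distal regions of the same library, because enrichments of different libraries are not on 1 scale. The median percentile was 61.3, 61.4 and 61.2 in the medial nasal plate, the lateral nasal plate and the e13.5 nose, against 83.5, 85.5 and 86.5 for regions shared with the jaw. A percentile of at least 50 in all 3 libraries was reached by 544 (31.2%) nasal-only regions, against 1673 (71.3%) shared ones, and one of at least 90 by 8 (0.459%), against 467 (19.9%). No library led, since 581 regions had their highest percentile in the medial nasal plate, 572 in the lateral plate and 589 in the nose. Across the 1742 regions, Spearman's rho of the enrichments was 0.32 between the nasal plates, 0.24 between the medial plate and the nose and 0.18 between the lateral plate and the nose. Across the 2345 shared regions these were 0.71, 0.51 and 0.52. These are descriptions across regions, which are not independent replicates, and strength in the nasal libraries is tied to the choice of regions. The median width was 2436.5 bp, against 3064 bp for shared regions and 1161 bp for all distal regions. Widths are of regions merged over all 10 lists, where each further peak can only widen a region. Nasal-only regions needed a peak in all 3 nasal libraries and shared regions at least 1 more in the jaw, so width is tied to the choice too.

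**Figure D3:**
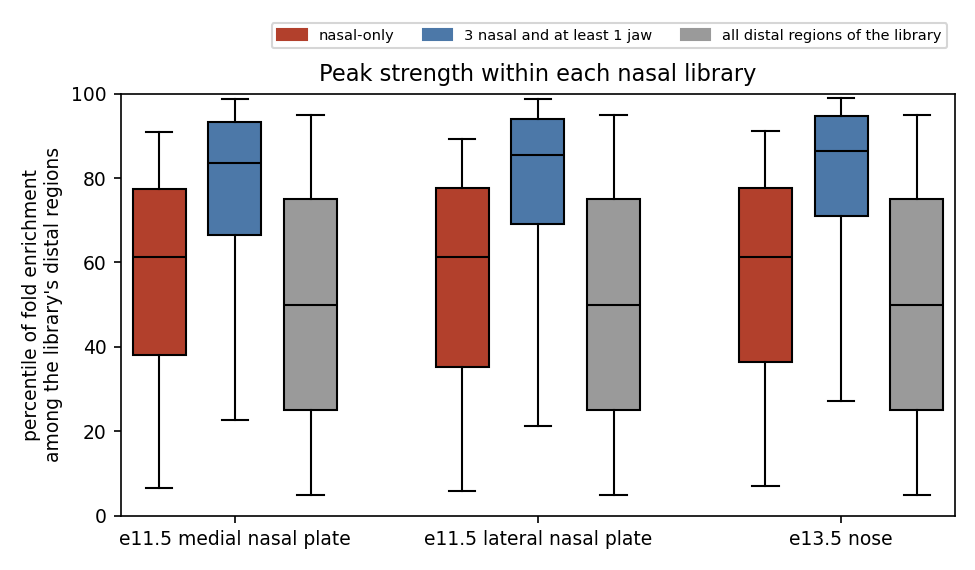
Percentile of fold enrichment among the distal regions of each nasal library (vertical axis) for nasal-only regions, regions shared with the jaw and all distal regions, in that order. Boxes give the quartiles and median and whiskers the 5th and 95th percentiles, and the nasal-only medians of 61.3, 61.4 and 61.2 lie below those of the shared regions at 83.5, 85.5 and 86.5.

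The strongest nasal-only region by its lowest percentile lay in an intron of Tcf7l1 at chr6:72765434-72771141. Its fold enrichments in the medial plate, the lateral plate and the nose were 8.45, 7.18 and 5.23, and its lowest percentile was 93.4. It kept a peak at e15.5 in the libraries labelled mandibular process (named nose) and maxillary process (named md). Another region of the gene, chr6:72720436-72726415, was much lower, with folds of 2.78, 2.88 and 3.85. The other 9 strongest regions were nearest to 3110018I06Rik, Rflna, Rad51b, Klhl29, Sfrp2, Tmem178, Psma6, Prdm16 and Efna5. The start lay 690457 bp away for 3110018I06Rik and 346059 bp away for Rad51b, with the region in a Rad51b intron. Sfrp2 had folds of 6.82, 4.84 and 4.93, and Efna5, an ephrin ligand of axon guidance, had 6.37, 5.22 and 4.59. The Prdm16 region, chr4:154580689-154589692, was also among the widest at 9004 bp, with folds of 5.58, 6.35 and 4.61.

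The widest nasal-only region spanned 9875 bp in an intron of Boc, a co-receptor for Hedgehog ligands, at chr16:44538129-44548003. Its folds were 2.73, 3.29 and 3.14, at percentiles of 4.28 in the medial plate, 61.8 in the lateral plate and 55.7 in the nose. The next was the intergenic region near Alx1, a homeobox factor of the frontonasal mesenchyme, at chr10:102876428-102885613. It spanned 9186 bp and lay 136961 bp from the closest Alx1 start, with the closest jaw peak 131782 bp away. Its folds were 5.19, 3.56 and 6.02 in the medial plate, the lateral plate and the nose, and it had a peak in all 3 e15.5 libraries. Further regions over 7 kb lay in Creb3l2, Sipa1l3, Nxn, Tfap2b, Iqsec1, Lrp5 and Eefsec.

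The position of the nasal-only regions was then compared with the gene annotation. Of the 1742, 720 (41.3%, 95% exact interval 39.0 to 43.7) were intergenic, 777 (44.6%, 42.3 to 47.0) intronic and 245 (14.1%, 12.5 to 15.8) touched an exon. Shared regions were 49.4% intergenic (47.4 to 51.5), and all distal regions 42.2% (41.6 to 42.8). An exon was touched by 15.4% of shared regions (14.0 to 16.9) and 10.8% of all distal regions (10.5 to 11.2). More than 100 kb from a protein-coding start lay 18.5% of nasal-only regions (16.7 to 20.4), against 17.5% of shared regions (16.0 to 19.1) and 20.99% of all distal regions (20.5 to 21.5). The median distance to a protein-coding start was 26949 bp, against 26382 bp for shared regions and 27842 bp for all distal regions. Just inside the limit of 1 kb from a transcript start lay regions near Zfhx2 and Tsks, at 1002 and 1006 bp, and just outside it regions near Clic5 and Kcnj1, at 996 and 985 bp. The same presence pattern was found in 803 regions within 1 kb of a start, of which 716 lay over a start. These came from the part of the 42346 merged regions that was not among the 27439 distal ones. The closest jaw peak lay 107 bp away at the nearest and 26061 bp at the median, and 43 regions (2.47%) had one within 1 kb.

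In all, 1419 nasal-only regions lay within 100 kb of a protein-coding start and were assigned to 1167 genes, of which 187 had 2 or more. Smyd3, a lysine methyltransferase gene, had the most, with 7 of its 23 distal regions. They all lay within the gene, and the 2 strongest, chr1:179426379-179430622 and chr1:179445851-179447522, had lowest percentiles of 68.3 and 74.0. Tenm4, a teneurin adhesion protein, had 6 of 36, with lowest percentiles of 0.894 to 36.9, and 0 with a −log10 q of at least 2, where Smyd3 and Slc38a6 had 5 each. Msi2, an RNA-binding protein, had 5 of 21, Bach2, a transcriptional repressor, 5 of 27, and Dlgap1, a synaptic scaffold protein, 5 of 14. Prdm16, Tns1 (a focal adhesion protein), Tead1, Pja1 (a ubiquitin ligase), Slc38a6, Hunk (a kinase) and Zfhx3 (a homeobox factor) had 4 each. Nxn, a Wnt pathway modulator, Boc and Hpse2 had 3 each. The nearest gene need not be the one a region acts on.

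**Figure D4:**
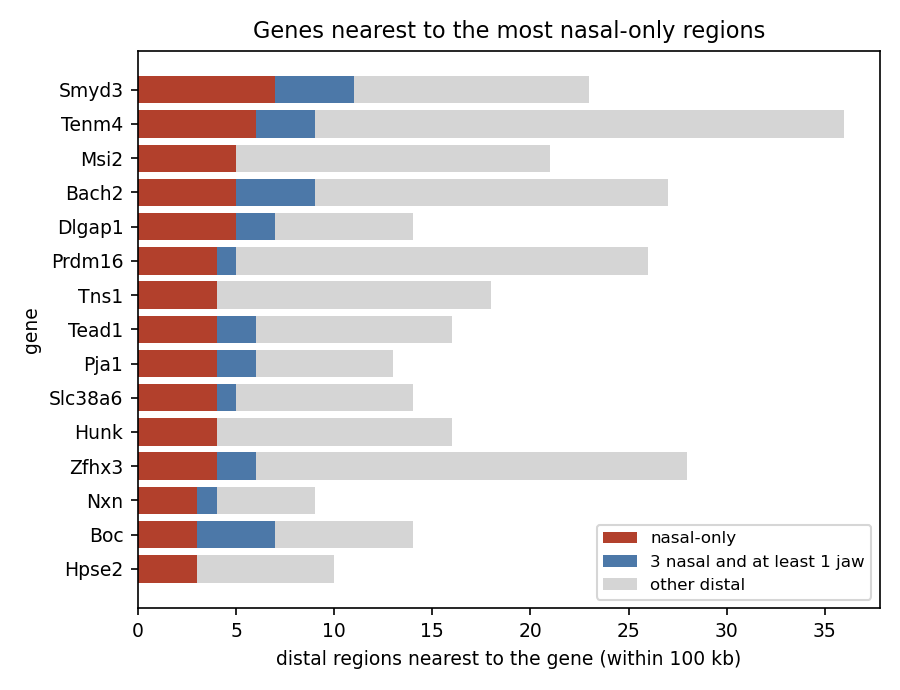
Distal regions nearest to each of the 15 genes with the most nasal-only regions (horizontal axis, number of regions within 100 kb of a start), split into nasal-only regions, regions of all 3 nasal and at least 1 jaw library, and others. Smyd3 had 7 nasal-only regions of 23 and Tenm4 6 of 36.

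Over all genes, 6.55% of the distal regions assigned to a gene were nasal-only. For genes of the frontonasal mesenchyme the count was 8 of 51 (15.7%), for genes of the Hedgehog pathway 9 of 74 (12.2%), for bone genes 5 of 34 (14.7%) and for genes of endothelium and blood 6 of 43 (14.0%). Set against the regions of all 3 nasal libraries, of which 42.3% were nasal-only over all genes, these shares were 66.7% for frontonasal, 45.0% for Hedgehog, 35.7% for bone and 60.0% for endothelium and blood genes, so that bone lay below the overall share and Hedgehog near it. On this base, olfactory placode and neurons had 71.4%, above the frontonasal share. Palate and midface growth had 53.8%, and jaw patterning and cartilage 50% each. Axon guidance and adhesion had 48%, Wnt 45.8%, retinoic acid 41.7% and epithelium 40%. Other mesenchyme regulators had 35.7%, FGF 29.4% and BMP and TGF-beta 28.6%. Muscle, and melanocytes, glia and sensory neurons, had 100%, from 1 nasal-only region each. No test was run on these small counts, and the lists were drawn up with results of these data known. Of all their distal regions, FGF signalling (5 of 72) and BMP and TGF-beta signalling (8 of 116) had shares close to the 6.55% over all genes. Other mesenchyme regulators (10 of 159) and axon guidance and adhesion (12 of 199) were close to it too. Retinoic acid had 5 of 63, Wnt 11 of 130, olfactory placode and neurons 5 of 60, palate and midface growth 7 of 73, jaw patterning 3 of 33 (9.09%) and cartilage 4 of 49. Epithelium had 2 of 49, muscle 1 of 8 and melanocytes, glia and sensory neurons 1 of 14. For genes of the forebrain and eye, which lie next to the nasal tissue, there were 0 of 10. Promoter peaks of 8 forebrain and eye markers were found for 3, 1 and 2 in the medial plate, the lateral plate and the nose and for none in the 4 jaw libraries, with Six3, a forebrain factor, in all 3 nasal libraries. Over all genes with a distal region, promoter peaks were also fewer in the jaw libraries. The part of forebrain and eye cells in the nasal-only regions was not tested.

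Among frontonasal genes, Alx4 had 3 nasal-only regions of its 7 distal regions, and a single other one shared with the jaw. At chr2:93660879-93664873, in a part where Alx4 and Ext2 overlap, the folds were 3.37, 2.93 and 3.68 in the medial plate, the lateral plate and the nose, and at e15.5 the library labelled mandibular process (named nose) had a peak. Another region, chr2:93628701-93630415, had 3.57, 3.56 and 2.78, and chr2:93670507-93673190 had 2.73, 2.69 and 3.19, and neither had a peak at e15.5. All 3 were in a chain of 5 nasal-only regions less than 50 kb apart that spanned 108670 bp. Tfap2b, an AP-2 factor of neural crest, had 1 region of 8362 bp at chr1:19230254-19238615, with folds of 3.32, 2.87 and 4.24. Tfap2a, its relative, had chr13:40716779-40721969 with 3.28, 2.82 and 3.44, and the closest jaw peak was 3664 bp away. Pax3, a paired-box factor of neural crest, had an intronic region at chr1:78155464-78161092 with 2.97, 3.20 and 3.53. The Pax7 intron had chr4:139809426-139812274 with 3.59, 3.67 and 2.84, and the closest jaw peak was 120470 bp away. Six2, a homeobox factor, had 1 region, near the bottom of the nose list with a percentile of 0.459. These regions were therefore of ordinary strength, and the promoter of Alx4 itself had a peak in all 10 libraries, while that of Pax7 had none in the jaw.

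Among Hedgehog genes, Boc and Gas1, both co-receptors, had 3 regions each, and Cdon, a further co-receptor, Ptch1, the receptor, and Gli2, a transcription factor of the pathway, 1 each. Besides its wide intronic region, Boc had chr16:44564711-44566999 with folds of 3.11, 3.36 and 3.15 and chr16:44599712-44603349 with 3.40, 3.12 and 3.99. The last of these had a peak in all 3 e15.5 libraries. Of the Gas1 regions, chr13:60230185-60233297 had a jaw peak only 836 bp away, and chr13:60155508-60157398 was at percentile 0.626 in its lowest library. Both genes also had 4 distal regions shared with the jaw, and both promoters had a peak in all 10 libraries. In the jaw list the 3 regions were all nearest to Gsc, a homeobox factor of the first arch, between 61656 and 92899 bp from its start, with no e15.5 peak.

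The remaining lists held scattered regions. Sox5, a regulator of cartilage formation, had 3 within 100 kb of a start, of which chr6:144165307-144167282 had folds of 4.19, 6.90 and 3.77. A further Sox5 intronic region, chr6:144054083-144059201, lay just over 100 kb from a start and had 6.63, 3.60 and 5.75. Runx2, the master factor of bone formation, had 2, at chr17:44717658-44719070 and chr17:44722265-44725834, with no peak at e15.5 in any library. Fli1, an endothelial factor, had 3, of which one, chr9:32567489-32568845, was at percentile 0.0874 in its lowest library. Promoter peaks of 6 blood and vessel markers were found for 2 in each nasal library and for none in the 4 jaw libraries, and the part of these cells in the regions near Fli1 was not tested. Promoter peaks were fewer in the jaw libraries over all genes with a distal region as well. Eya2, expressed in sensory placodes, had an intronic region at chr2:165738750-165745408 with folds of 4.08, 3.28 and 3.79.

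Promoters of the 1167 genes were mostly not nasal-only themselves. A promoter peak was found in all 3 nasal and all 4 jaw libraries for 301 (25.8%), against 20.3% of the 7817 genes with any distal region. It was found in all 3 nasal and no jaw library for 51 (4.37%), against 3.49%, and in none of the 7 libraries for 232 (19.9%), against 30.7%. Of the 1167 genes, 546 (46.8%) had another distal region with a jaw peak, and of the 7817 genes 2734 (35.0%) had a distal region with one.

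Of the 1742 nasal-only regions, 426 (24.5%) lay less than 50 kb from another nasal-only region, in 137 pairs, 38 groups of 3, 7 of 4 and 2 of 5. The others were apart from nasal-only regions but not from all peaks, since 1175 of the 1742 (67.5%) had a jaw peak within 50 kb. The same grouping was not counted for shared or for all distal regions. The largest groups were at Nxn and Mrm3, chr11:76286238-76386117, and at Gm10803 and Alx4, chr2:93564521-93673190. Groups of 4 lay at Rad51b and Zfp36l1, Tns1, Tead1, Pja1, Slc38a6 and Sox11, among others.

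The e15.5 libraries, which entered the merging but not the rule, were then compared. A peak was found in the library labelled mandibular process (named nose) for 793 nasal-only regions (45.5%, exact interval 43.2 to 47.9), against 29.8% of all distal regions. In the library labelled maxillary process (named md) it was found for 503 (28.9%, 26.8 to 31.1), against 23%. In the library labelled nose (named mx) it was found for 104 (5.97%, 4.90 to 7.19), against 9.47%. The last share was 1.72% with a −log10 q of at least 2, 1.27% with 50% coverage and 11.4% with shortened nasal lists. No e15.5 peak was found for 832 (47.8%, 45.4 to 50.1), against 55% of all distal regions, and all 3 libraries had one for 59 (3.39%), against 3.04% of all distal and 22.3% of shared regions. The 3 lists held 19823, 16577 and 7736 peaks, so their lengths fall in the same order as the shares, and that order was also the one over all distal and over shared regions. The peak names and the labels cannot be told apart by it. A peak in the library labelled mandibular process (named nose) alone was found for 371 nasal-only regions (21.3%), against 15.9% of all distal regions. One in that labelled maxillary process (named md) alone was found for 97 (5.57%), against 9.33%, and one in both of these for 338 (19.4%), against 10.3%. One in that labelled nose (named mx) alone was found for 11 (0.631%), against 5.57%. Among shared regions these shares, in the order given, were 14.0%, 4.61%, 34.2% and 0.341%. All distal regions include ones with peaks at e15.5 only, which the rule could not choose.

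Regions shared with the jaw were found at e15.5 more often, with 71.8%, 61.5% and 24.3% in the 3 libraries in the same order and 22.9% in none. Shared regions were also stronger, so both sets were divided by the lowest of the 3 nasal percentiles, at the quartiles of all 4087 regions (25.9, 54.2 and 78.8). In the library labelled mandibular process (named nose), the nasal-only share was 37.4%, 44.0%, 56.8% and 72.0% from the weakest to the strongest class, against 52.8%, 54.4%, 66.1% and 90.4% for shared regions. In that labelled maxillary process (named md), it was 25.1%, 28.4%, 32.0% and 48.8%, against 44.2%, 51.7%, 54.7% and 76.8%. In that labelled nose (named mx), it was 4.17%, 5.55%, 9.56% and 7.32%, against 12.9%, 14.6%, 15.3% and 39.0%. These are descriptions of single libraries, with no test, and neither width nor the values the regions were chosen by were held equal. The strongest class held only 82 nasal-only regions, against 940 shared ones. Regions with an e15.5 peak had a median width of 2716.5 bp and those with none 2172.5 bp. An e15.5 peak could itself widen the merged region that held it, so this difference is partly set by the merging. With the e15.5 libraries left out of the merging, 1776 nasal-only regions were found and the 3 shares were 46.5%, 29.5% and 6.08%.

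**Figure D5:**
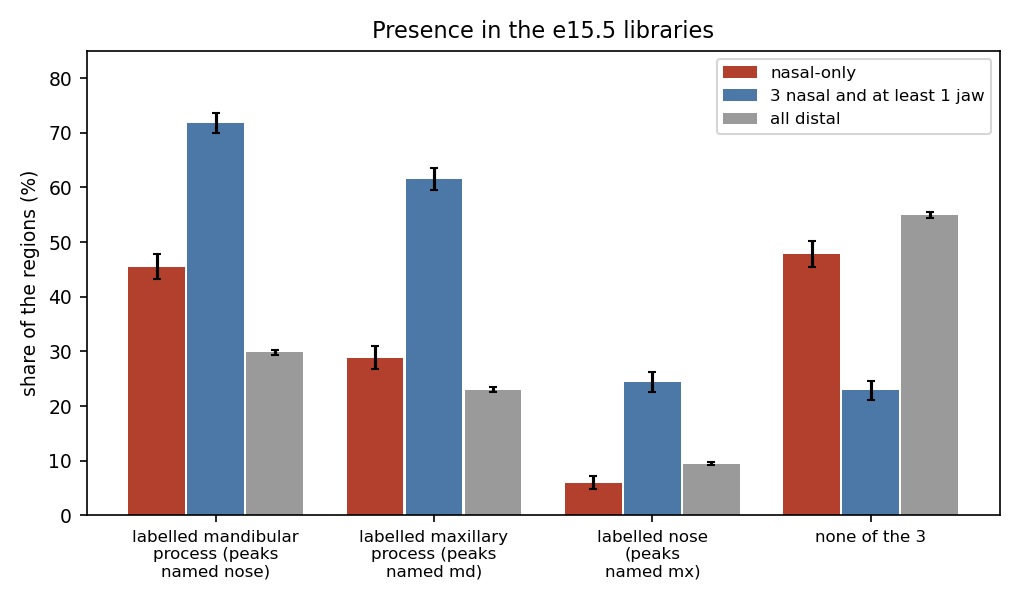
Share of nasal-only regions, of regions shared with the jaw and of all distal regions (vertical axis, percent) with a peak in each e15.5 library, given by its label and its peak name, or in none. Error bars are 95% exact binomial intervals, and the nasal-only shares were 45.5%, 28.9%, 5.97% and 47.8%.

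Nasal-only regions with a peak in all 3 e15.5 libraries included, besides the Alx1 region, wide regions in or near Creb3l2, Sipa1l3, Mink1, Dnm3, Vgll4, Hhat, Eif4g2, Mark2 and Phc2. They were listed by width, which their e15.5 peaks could themselves raise. Hhat encodes the enzyme that attaches palmitate to Hedgehog ligands. Vgll4 is a cofactor of TEAD factors.

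Sequence content was compared in windows of 1000 bp. They were centred on the overlap of the 3 nasal peaks for 1707 of the 1742 nasal-only and 2333 of the 2345 shared regions, and on the middle of the merged region for all others. The lower quartile of width was 448 bp over all distal regions, against 1849 bp for nasal-only regions. Windows of all distal regions thus more often held sequence outside the region, which was not accounted for. The median GC content was 48.2%, against 49.2% for shared regions and 46.3% for all distal regions. Windows rich in CpG, with GC of at least 50% and an observed to expected ratio of at least 0.6, numbered 10 (0.574%), against 108 (4.61%) and 221 (0.805%). CpG-rich windows were thus rarer among nasal-only than among shared regions. Of 24 consensus sequences searched on both strands, none differed by more than 4.72 percentage points between nasal-only and all distal regions or by more than 4.66 between nasal-only and shared regions. TAATTA, the core of many homeodomain sites, was found in 22.0% of nasal-only windows (20.1 to 24.1), against 19.6% of shared (18.03 to 21.3) and 24.2% of all windows (23.7 to 24.7). CAGATG was found in 63.1%, against 64.0% and 61.5%. The AP-2 letters GCCNNNGGC were found in 29.1%, against 31.1% and 24.3%. GC content moved with the AP-2 share: within the windows lowest in GC (below 44.9%) it was 14.6%, against 15.7% and 13.2%, and within those highest in GC (51.7% and above) 44.0%, against 47.5% and 44.6%. ACAATG, the SOX letters, were found in 41.2%, against 37.4% and 42.8%, and TGTTTAC, the forkhead letters, in 16.8%, against 13.52% and 15.4%. A match of letters is not a bound site. The printed Tcf7l1 stretch holds 1 homeodomain match, the Alx4 stretch 1 E-box and the Tenm4 stretch 1 SOX match, and the Alx1 and Tfap2b stretches hold none of the 5.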

How the data were processed

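Per the labels, H3K27ac ChIP-seq was carried out on dissected embryonic face tissue; the tools in the submitters' notes are MACS2 2.2.4, BWA 0.7.7 and SAMtools 0.1.19, with mm10 as the build and no settings. The deposited lists are broad peaks called by the authors per sample, each with a score, a fold enrichment (a ratio over background) and a −log10 p-value and q-value, and no list goes below a −log10 q of 1.30. Scores were not used. The 10 input samples were not analysed here. Read depth is unknown, and values were ranked only within a list.

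Peaks on chromosomes 1 to 19, X and Y (144852 of 144896) were merged where they overlapped or touched, and the merged regions were checked against bedtools 2.31.1. Starts came from GENCODE vM21. Presence was an overlap of any length. For counts per gene, regions were assigned to the nearest protein-coding start within 100 kb. Single regions and groups of regions were named by the nearest protein-coding start at any distance. Sequence was read with pysam 0.24.0 from the RefSeq GRCm38 genome. Python 3.11.15, pandas 2.3.3, scipy 1.17.1 and matplotlib 3.10.9 were used. The rule was tested on simulated data with planted regions. No test between tissues was run, since regions were chosen on the tissues and the lists hold no value where no peak was called. Shares have 95% exact Clopper-Pearson intervals, which cover counting error only.

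The members and the gene and motif lists were chosen with earlier results of these data known. Named were the 15 genes with the most members, up to 4 per list, the genes of the 10 widest and 10 strongest members and of the 5 largest chains, and up to 10 members found in all 3 e15.5 libraries; Pax7, Six2, Fli1, Cdon, Ptch1, Gli2, the genes left under shorter lists and the choice of printed sequences were added after values were seen. The alternatives were a −log10 q of at least 2, equally long lists, a 2.5 kb promoter window, merging within 1 kb, 50% coverage, merging without e15.5 and leaving out each of the 7 libraries.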

Additional observations from a re-analysis of the deposited data

How the results depend on the processing

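The number of nasal-only regions was 1742 with whole lists, 1024 when nasal peaks had to cover 50% of each region, 132 when the nasal lists were cut to the longest jaw list (chosen after seeing the data) and 15 with equally long lists. It was 1279 with a −log10 q of at least 2, overlapping 747 of the 1742, and between 1593 and 1776 with a 2.5 kb window, merging within 1 kb or merging without e15.5. The stricter q-value and equally long lists also removed jaw peaks. Regions found only under them had a jaw peak or a start within 1 kb with whole lists. Leaving out 1 library gave 1833 to 2919 regions. Each of the 7 libraries is a condition of the rule, so a higher count without one was set in advance.

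Shares with a peak in the e15.5 libraries labelled mandibular process (named nose), maxillary process (named md) and nose (named mx), and with none, were 38.1%, 22.1%, 1.72% and 57.9% with the stricter q-value, 34.4%, 19.4%, 1.27% and 59.9% with 50% coverage, and 74.2%, 42.4%, 11.4% and 22.7% with shortened nasal lists. With equally long lists the shares for the libraries labelled maxillary process (named md) and nose (named mx) were 33.3% and 13.3%. Leaving out 1 library gave ranges of 32.1% to 49.6%, 21.3% to 33.0%, 4.42% to 7.55% and 43.8% to 61.9%. The order of the 3 libraries was the same in all of these. The intergenic share was 44.1% with the stricter q-value, 53.3% with equally long lists and 40.3% to 42.5% without 1 library. Of 210 counts of regions per gene for the 15 leading genes, 161 stayed within 1.5 times of the value with whole lists and 49 did not. No paired analysis was possible because there was 1 library per tissue and stage. Read depth is unknown, so no detection limit can be given for a jaw peak that was not called.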
